A study of Arabidopsis thaliana with 12 samples.

Results

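The genes described here are the 34 nuclear loci that code for the protein subunits and carriers of photosynthetic electron transport in the thylakoid, the antenna proteins left out, among 32833 loci listed for Arabidopsis thaliana. They were chosen by locus: 12 subunits of photosystem I (PSAD1 to PSAO), 12 subunits and assembly proteins of photosystem II (PSBO1 to PSB28), the Rieske protein PETC with the plastocyanins PETE1 and PETE2, the ferredoxins FD1 and FD2 with the ferredoxin-NADP reductases LFNR1 and LFNR2, and the ATP synthase subunits ATPC1, ATPD and ATPG. The samples were leaves of wild type Col-0 plants aged 30 days, raised at 23 °C with 12 h of light a day at 50 µmol m-2 s-1. Control plants received no stress, and the other 3 groups received 7 h of high light at 600 µmol m-2 s-1, of heat stress at 42 °C, or of both together (the combination). The labels give neither the light level of the heat plants nor the temperature of the high light plants during those 7 h. Each group has 3 poly(A) RNA libraries, and the labels do not say whether these came from separate plants, so p-values measure only the spread between these libraries. All 34 loci passed the filter on low values.

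Electrons released from water at photosystem II pass through plastoquinone, the cytochrome b6f complex and plastocyanin to photosystem I, and from there through ferredoxin and ferredoxin-NADP reductase to NADPH. The protons moved on the way drive the ATP synthase. The reaction centre proteins of both photosystems are coded in the chloroplast genome, while many subunits at the edges of the complexes, the mobile carriers plastocyanin and ferredoxin, and the reductase are coded in the nucleus and imported. Several of the nuclear genes exist in Arabidopsis as a pair of close copies.

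Reads recovered from the deposited values numbered 29814116 to 36938786 per library, and a single member was covered by 1730 (PETE1, a high light library) to 248350 reads in a library. Values below are normalised counts, which are read counts divided by the authors' DESeq2 size factor. The size factors lay between 0.535 and 0.605 in the combination and between 1.05 and 1.53 in the other groups. The 100 most abundant loci took 44.4% ± 3.99 of reads in the combination (SD, n = 3), beside shares of 27.3% ± 2.14 (control), 21.3% ± 0.608 (high light) and 25.8% ± 4.48 (heat). Scaling by library totals in place of size factors pulled the all-gene median log2 change down by 0.95 for the combination against control, by 0.90 for it against high light, by 0.87 for it against heat and by 0.82 for the interaction. Each change involving the combination is therefore relative to the typical gene of the deposited scaling. Directions that turn are named for members called on either scaling. Within heat the libraries differed from each other, with 0.588% of reads in 8 heat shock genes in library 1, 1.96% in library 2 and 3.75% in library 3. In the combination library 2 held 0.212% of reads from the chloroplast genome where the other 11 libraries held 0.0176% to 0.0588%. Changes that gained or lost a call without heat library 1 and combination library 2 together are named where they stand. Leaf markers were abundant (RBCS1A, RCA, GLDP1 and GLK2 summed to 327829 to 565478 in heat and to 474660 to 1032088 in the other groups), the flower markers AG, AP3 and PI summed to at most 36.8, and the seed markers CRA1 and SESA3 to at most 5.02. The 3 guard cell markers summed to 348.9 to 530.6 in the combination libraries, below their sums in control (1230 to 1465), high light (1654 to 1781) and heat (895.7 to 1169). FAMA and KAT1 were lower in the combination than in each other group. MYB60 overlapped control, and its combination mean of 126.4 was above its heat mean of 96.75. The 3 phloem markers summed to 3646 to 4575 in the combination libraries, below control (8138 to 9633), high light (6968 to 7644) and heat (5895 to 10524). SUC2 and AHA3 made this fall, while APL went the other way, with a mean of 467.5 in the combination and 240 in control. The xylem markers XCP1 and XCP2 had mean sums of 1236 (control), 1298 (high light), 2541 (heat) and 1731 (combination), and XCP2 made the rise in heat. The root markers PYK10 and AGP31 had mean sums of 2550, 2586, 3815 and 1325 in that order. In heat AGP31 was higher (mean 3214, control 1238) and PYK10 lower (601.5, control 1312). The epidermis markers had mean sums of 12030, 8058, 7718 and 10220. The part of these cells in the results was not tested, and in whole leaves fewer cells of a type and less RNA per cell cannot be told apart.

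After high light alone the transcripts of both photosystems fell, while those of the ATP synthase, the reductases and the Rieske protein did not pass the test. Of the 34 genes 23 were lower and 2 higher than in control at an adjusted p under 0.05 (limma, all 12 libraries in the fit), with a median log2 change of -1.25, while 16.6% of all 19309 genes tested were lower, 18.1% were higher, and their median was -0.03. All 12 photosystem I genes and 10 of the 12 photosystem II genes were among those that fell. This fit left out the replicate number, which was taken to pair the control and high light libraries. With that number as a block in limma, the photosystem II gene PSBY alone lost its call (adjusted p = 0.0541). After heat alone 14 were lower and 2 higher, with a median of -0.51, beside 24.8% lower and 24.6% higher over all genes and a median of -0.00079. Photosystem I accounted for 8 of these 14 and photosystem II for 4.

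In the combination the direction against control depended on the scaling. On the deposited scaling 13 of the 34 members rose and 2 fell against control, with a median of 0.29, beside 29.8% higher and 29.7% lower over all genes, whereas scaling by library totals gave 1 higher and 20 lower. Against high light, 26 were higher and 1 lower in the combination, with a median of 1.64 (28.1% and 29.3% of all genes), and library totals still gave 22 higher and 5 lower. Against heat, 26 were higher and 0 lower (27.9% and 27.0% of all genes), with a median of 1.03, but library totals gave 9 higher and 5 lower, and a fit of the heat and combination libraries alone gave 17 higher. Without heat library 1 and combination library 2 that count was 19. No member was lower than in heat by limma at an unadjusted p under 0.05 (0), by edgeR (0) or by DESeq2 (0). Over all genes, library totals put 1765 above and 12083 below control, 1902 above and 11811 below high light, and 1541 above and 11154 below heat. The interaction then had 1787 positive and 8840 negative genes.

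**Figure D1:**
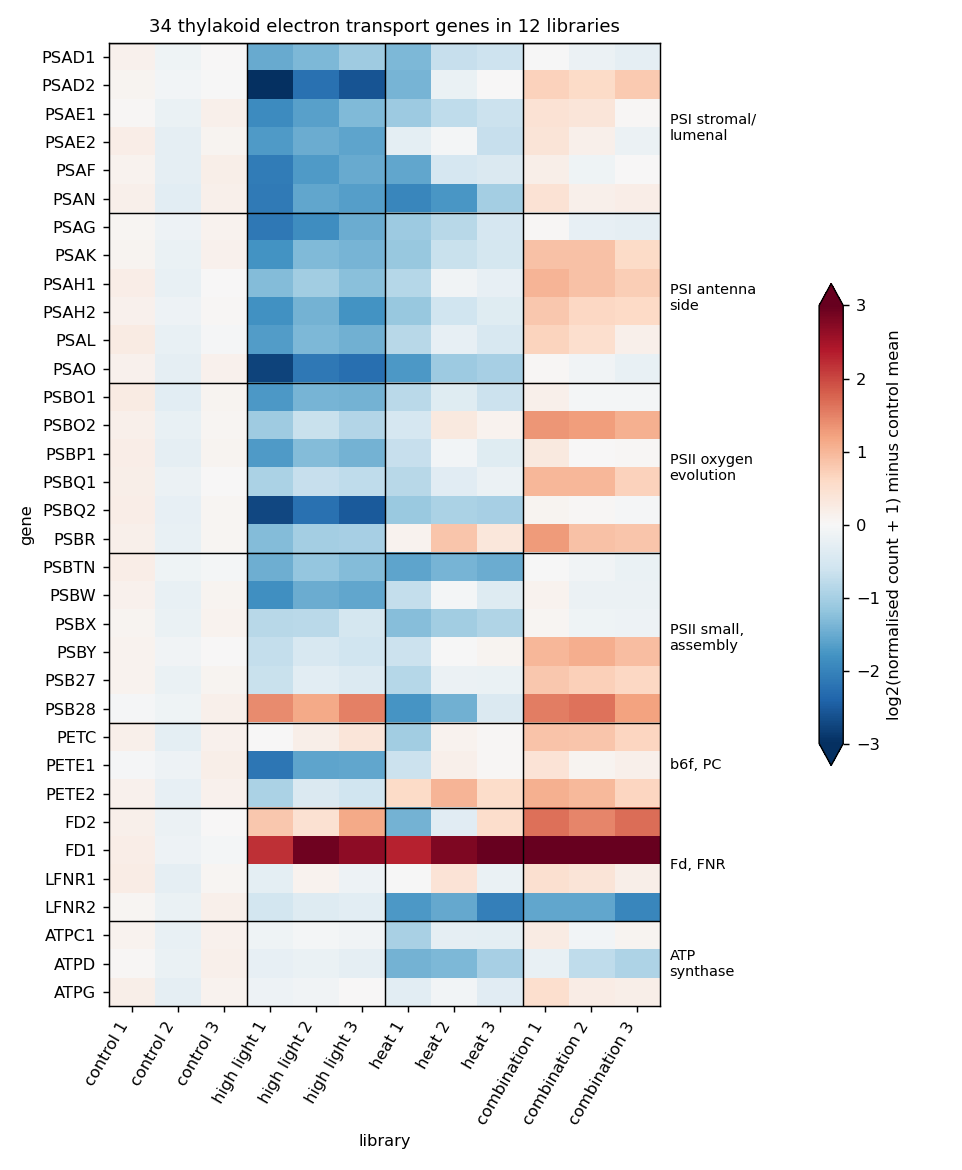
Heat map of log2(normalised count + 1) minus the mean of the 3 control libraries for 34 genes (rows, grouped by complex) in 12 libraries (columns), with colours ending at -3 and 3. High light columns are blue over photosystem I and most of photosystem II, FD1 is red in all 9 stressed libraries and runs past the end of the scale in the combination, and the red of the other genes in the combination depends on the deposited scaling, since library totals leave 1 of 13 genes higher than control.

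All transcripts of the stromal and lumenal docking subunits of photosystem I fell in high light. PSAD and PSAE form the stromal ridge on which ferredoxin docks, and PSAF and PSAN lie where plastocyanin binds in the lumen. All 6 genes of this group fell in high light (median -1.69) and 4 fell in heat (median -0.83). In the combination against control 0 of the 6 passed the test by limma, also at an unadjusted p under 0.05, by edgeR or by DESeq2, and their changes ranged from -0.16 to 0.68. With library totals PSAD1 (-1.11), PSAE1 (-0.67), PSAE2 (-0.83), PSAF (-0.93) and PSAN (-0.69) were lower than control.

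PSAD2 (AT1G03130), at chr1:753307-754262 on the minus strand of TAIR10.1, had normalised counts of 24514, 21860 and 22888 (control), 2268, 4893 and 3805 (high light), 8743, 19997 and 23295 (heat) and 37273, 34225 and 39603 (combination). The high light libraries lay far below all others and the combination libraries above all others, while heat overlapped control and its library 1 was far below its other libraries. Its log2 change was -2.73 (SE 0.34, adjusted p = 5.93e-05) in high light, a 6.62-fold fall, -0.53 (SE 0.34, adjusted p = 0.21) in heat and 0.68 (SE 0.34, adjusted p = 0.0992) in the combination against control. The last value passed the test when only those groups were fitted (adjusted p = 0.0029) and without heat library 1 and combination library 2 (0.0358). It stands on the deposited scaling. Library totals shifted the all-gene median of this comparison by -0.95, a shift larger than the 0.68, and PSAD2 had no call there.

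Its copy PSAD1 (AT4G02770) stood at 68783, 57172 and 63144 (control), 22073, 24792 and 29880 (high light), 24780, 39183 and 40554 (heat) and 62009, 55697 and 52023 (combination). Control and the combination overlapped, and both lay above high light and heat. PSAD1 changed by -1.31 (SE 0.23, adjusted p = 0.000694) in high light and -0.89 (SE 0.23, adjusted p = 0.00646) in heat.

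PSAE1 (AT4G28750) was measured at 27150, 22835 and 29388 (control), 7093, 8538 and 10586 (high light), 12267, 15641 and 16832 (heat) and 35630, 33596 and 27130 (combination), with all high light libraries below all heat libraries and these below control. It fell in both single stresses, with log2 changes of -1.61 (SE 0.20, adjusted p = 7.12e-05) and -0.83 (SE 0.20, adjusted p = 0.00506). PSAE2 (AT2G20260) counts were 20196, 14602 and 18602 (control), 5396, 6288 and 5855 (high light), 14314, 17034 and 10906 (heat) and 23196, 19678 and 15548 (combination), so that heat overlapped control and high light did not. The log2 change of PSAE2 was -1.60 (SE 0.21, adjusted p = 9.50e-05) in high light and -0.35 (SE 0.21, adjusted p = 0.187) in heat.

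PSAF (AT1G31330), the plastocyanin-binding subunit, had the smallest change of the group in the combination, 0.02 (SE 0.30, adjusted p = 0.96), with counts of 93506, 71744 and 97863 (control), 20355, 26933 and 30559 (high light), 29597, 60993 and 64771 (heat) and 98124, 80099 and 87057 (combination). The combination overlapped control, and heat library 1 was the lowest of its group. PSAF fell in high light, with a log2 change of -1.76 (SE 0.30, adjusted p = 0.000588), and its change in heat, -0.83 (SE 0.30, adjusted p = 0.0354), became -0.47 (adjusted p = 0.0901) without heat library 1 (0.0986 without combination library 2 as well). That heat call was also lost without control library 1 (adjusted p = 0.0995) or 3 (0.112), with no filter on low values (0.0646) and with only control and heat fitted (0.108). PSAN (AT5G64040), the small lumenal subunit, fell in both single stresses, with changes of -1.77 (SE 0.26, adjusted p = 0.000201) in high light and -1.57 (SE 0.26, adjusted p = 0.000402) in heat.

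The subunits at the antenna side of photosystem I followed the same course in high light. PSAG and PSAK are small membrane subunits next to the light-harvesting belt, and PSAH, PSAL and PSAO form the side where the mobile antenna docks in state transitions. All 6 fell in high light (median -1.58), and 4 fell in heat (median -0.74). In the combination PSAK, PSAH1 and PSAH2 were higher than control and the other 3 did not pass the test, but under library totals those 3 values became -0.18, -0.07 and -0.28 with no call, and PSAL (-0.51), PSAG (-1.12) and PSAO (-1.05) were lower than control.

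PSAH1 (AT3G16140) had 18231, 13586 and 15895 (control), 6382, 7613 and 6632 (high light), 8678, 14655 and 13418 (heat) and 32189, 29090 and 26178 (combination), each combination library above each control library and each high light library below every other. The gain in the combination was 0.88 (SE 0.21, adjusted p = 0.00302) and the fall in high light -1.20 (SE 0.21, adjusted p = 0.000682). PSAH2 (AT1G52230) had 30800, 25481 and 28970 (control), 8071, 10664 and 8225 (high light), 12948, 18672 and 22086 (heat) and 49909, 43686 and 42549 (combination). Its combination libraries also lay above control, by 0.68 (SE 0.21, adjusted p = 0.0154), a call that was lost without control library 2 (adjusted p = 0.0591). In high light PSAH2 fell, with a change of -1.67 (SE 0.21, adjusted p = 7.30e-05), and the change in heat, -0.70 (SE 0.21, adjusted p = 0.0163), lost its call without control library 1 (adjusted p = 0.0623) or 3 (0.0523) and with only control and heat fitted (0.0529).

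PSAO (AT1G08380) moved least in the combination, -0.09 (SE 0.25, adjusted p = 0.762), with 99075, 75990 and 99831 (control), 13351, 20459 and 19096 (high light), 27672, 42453 and 45238 (heat) and 93880, 84506 and 77885 (combination). The combination overlapped control, while high light lay lowest, -2.39 (SE 0.25, adjusted p = 1.72e-05), a 5.24-fold fall, and heat in between, -1.27 (SE 0.25, adjusted p = 0.00125). The other members of this side fell in high light, with changes of -1.83 for PSAG (AT1G55670), -1.50 for PSAK (AT1G30380) and -1.48 for PSAL (AT4G12800). In heat PSAG changed by -0.81 (SE 0.21, adjusted p = 0.00605), PSAK by -0.78 (SE 0.22, adjusted p = 0.012) and PSAL by -0.52 (SE 0.25, adjusted p = 0.104), and the PSAK call was lost without control library 3 (adjusted p = 0.0524). The heat value of PSAL passed the test by DESeq2 (adjusted p = 0.0288) and with library totals (0.0222).

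**Figure D2:**
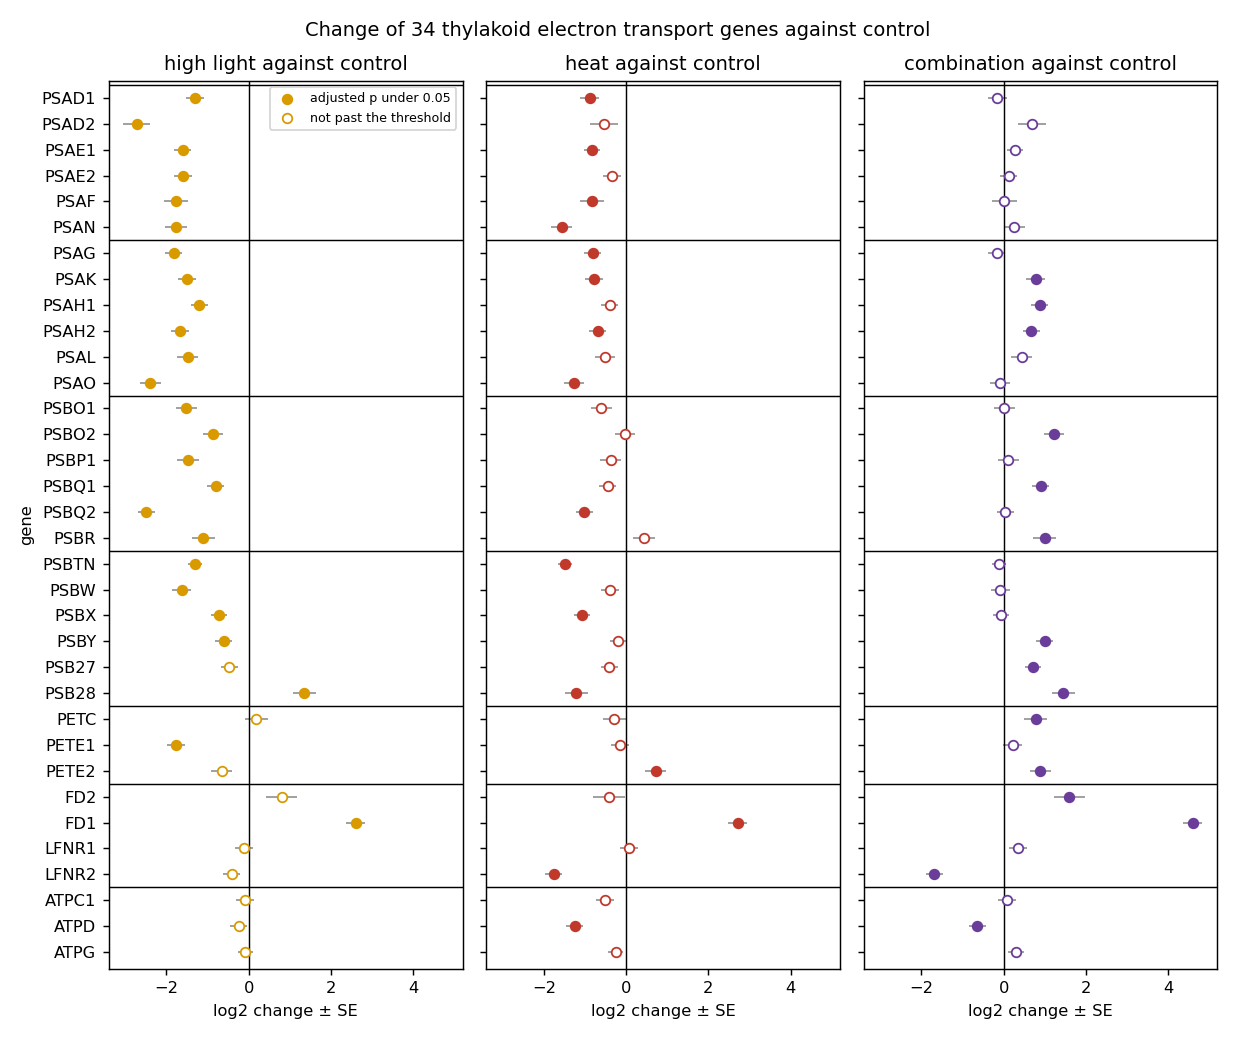
Log2 change against control with its standard error for 34 genes (rows, grouped by complex) in high light, heat and the combination, filled points having an adjusted p under 0.05. High light has 23 filled points to the left of 0, heat 14, and the combination 2, a count that is 20 under scaling by library totals.

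The lumenal oxygen-evolving proteins shield the manganese cluster of photosystem II. By counts per kilobase in control, PSBR, PSBP1 and PSBO1 held places 1, 2 and 4 of the 34 members. PSBQ2, PSBQ1 and PSBO2 held places 11, 15 and 20. All 6 genes fell in high light (median -1.29), while in heat PSBQ2 was the 1 gene called lower by limma (median of the 6 -0.42), beside 2 by edgeR, 3 by DESeq2 and 3 with library totals. In the combination PSBO2, PSBQ1 and PSBR were higher than control, but with library totals none of the 3 passed the test, PSBQ1 turned to -0.06, and PSBO1 (-0.94), PSBP1 (-0.84) and PSBQ2 (-0.92) were lower than control.

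PSBO1 (AT5G66570), the more abundant of the manganese-stabilising proteins, had 190209, 129048 and 169207 (control), 48542, 60933 and 60264 (high light), 91999, 125400 and 102924 (heat) and 179044, 155582 and 154335 (combination). Control and the combination covered the same range, 0.02 (SE 0.25, adjusted p = 0.959), high light lay below all other libraries, -1.51 (SE 0.25, adjusted p = 0.000447), and heat in between, -0.60 (SE 0.25, adjusted p = 0.0597). The heat value of PSBO1 passed the test by edgeR (adjusted p = 0.044) and DESeq2 (0.0037), with TMM scaling (0.0459), a filter at a mean of 50 (0.0361) or library totals (0.0124). It also passed without library 2 of control (0.0421) or of heat (0.0453). PSBO2 (AT3G50820) had 47869, 36932 and 44198 (control), 20534, 26908 and 23242 (high light), 30135, 52664 and 46033 (heat) and 107520, 102626 and 89787 (combination). Every combination library held more PSBO2 than any other library, and the change from control was 1.22 (SE 0.24, adjusted p = 0.000764), with 0.27 under library totals. In high light PSBO2 fell, with a change of -0.87 (SE 0.24, adjusted p = 0.0123), a call lost without library 1 of control (adjusted p = 0.0577) or of high light (0.0588), and in heat it overlapped control, -0.03 (SE 0.24, adjusted p = 0.921).

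PSBQ1 (AT4G21280) had 45774, 35851 and 41393 (control), 21000, 25135 and 24138 (high light), 22756, 32495 and 35873 (heat) and 81781, 81076 and 66212 (combination), the combination above and high light below all control libraries. PSBQ1 changed by -0.80 (SE 0.22, adjusted p = 0.0112) in high light, a call lost without library 1 of control (adjusted p = 0.0561) or of high light (0.0536), and by 0.90 (SE 0.22, adjusted p = 0.00324) in the combination. PSBQ2 (AT4G05180), at chr4:2671523-2673243 on the minus strand, had 100633, 73753 and 92132 (control), 13322, 18816 and 15354 (high light), 40559, 45985 and 44382 (heat) and 93953, 90804 and 86525 (combination). In heat PSBQ1 changed by -0.45 (SE 0.22, adjusted p = 0.0984), a value that passed the test by DESeq2 (adjusted p = 0.0495) and with library totals (0.0148). High light held the least PSBQ2 of all groups, heat came next, and the combination overlapped control. The log2 change of PSBQ2 was -2.49 (SE 0.20, adjusted p = 3.43e-06) in high light, -1.02 (SE 0.20, adjusted p = 0.00147) in heat and 0.04 (SE 0.20, adjusted p = 0.889) in the combination. PSBP1 (AT1G06680), which helps retain calcium and chloride at the cluster, fell in high light, with a change of -1.47 (SE 0.26, adjusted p = 0.000795), and did not pass the test in heat, -0.38 (SE 0.26, adjusted p = 0.245), or in the combination on the deposited scaling, 0.11 (SE 0.26, adjusted p = 0.729). PSBR (AT1G79040), a small subunit needed for stable attachment of these proteins, changed by -1.10 (SE 0.27, adjusted p = 0.00715) in high light, 0.43 (SE 0.27, adjusted p = 0.208) in heat and 1.00 (SE 0.27, adjusted p = 0.00719) in the combination.

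The 250 bases before the annotated gene start were read from TAIR10.1 for genes with no neighbour in that window, and 4 are shown because they belong to members with contrasting courses, PSBQ2 (lowest in high light), PSB28 (high in high light, described below), LFNR2 (low at high temperature) and FD2. Capitals mark the letters CACGTG (G-box), GATAAG (I-box) and CCAATC, on either strand. The PSBQ2 window lies at chr4:2673244-2673493 on the minus strand, PSB28 at chr4:14149599-14149848 on the plus strand, LFNR2 at chr1:6942375-6942624 on the plus strand and FD2 at chr1:22444057-22444306 on the plus strand.
PSBQ2: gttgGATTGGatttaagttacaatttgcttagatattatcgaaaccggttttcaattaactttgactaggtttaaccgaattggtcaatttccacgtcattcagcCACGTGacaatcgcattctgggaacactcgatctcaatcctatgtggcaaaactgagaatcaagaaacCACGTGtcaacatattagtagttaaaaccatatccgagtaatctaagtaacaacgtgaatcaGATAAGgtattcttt
PSB28: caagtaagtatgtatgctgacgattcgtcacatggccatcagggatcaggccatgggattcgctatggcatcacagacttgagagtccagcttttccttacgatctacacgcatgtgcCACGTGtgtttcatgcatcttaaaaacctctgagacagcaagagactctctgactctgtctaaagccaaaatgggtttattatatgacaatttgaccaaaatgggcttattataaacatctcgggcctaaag
LFNR2: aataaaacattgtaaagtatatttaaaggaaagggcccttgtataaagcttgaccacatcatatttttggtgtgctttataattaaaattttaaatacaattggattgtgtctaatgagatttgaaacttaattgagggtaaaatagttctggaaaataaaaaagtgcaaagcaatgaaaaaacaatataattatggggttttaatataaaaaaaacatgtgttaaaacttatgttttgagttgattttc
FD2: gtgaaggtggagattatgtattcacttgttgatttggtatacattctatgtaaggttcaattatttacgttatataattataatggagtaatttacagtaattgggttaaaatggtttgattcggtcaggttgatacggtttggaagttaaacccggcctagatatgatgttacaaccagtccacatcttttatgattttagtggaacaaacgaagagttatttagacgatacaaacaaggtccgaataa
PSBQ2 holds the G-box at -145 and -77, the I-box at -15 and CCAATC at -246, counted to the first base of the match with the gene start as 0, and PSB28 holds the G-box at -132. LFNR2 and FD2 hold none of these letters in the window. With the 50 bases after the start included, the G-box was present in 13 of the 34 members (38.2%) against 7.68% of 27443 promoters of protein-coding genes of the same length, and in 5 of the 6 oxygen-evolving genes. In PSAE1, PSAH1, PSBO1, PSBO2, PSBR and PSBW the only G-box lay after the gene start, at 8, 18, 3, 33, 9 and 35. The I-box was present in 18 members (52.9% against 14.6%), among them 8 of the 12 photosystem I genes, and CCAATC in 8 (23.5% against 12.3%). The evening element AAAATATCT was found in 1 (2.94% against 2.82%) and the heat shock letters GAANNTTC in 3 (8.82% against 11.6%), of which FD1 held 2 matches, at -150 and 3, in a window that lies partly within the neighbouring gene AT1G10950. Both strands were searched, and a stretch that matched more than a single motif counted for each. These matches describe the letters only. The only I-box of PSAD2, PSAH1, PSAL, PSAO, PSBTN, PSBY and PETE1 also lay after the gene start. Among the 18686 promoters of protein-coding genes tested, 9.02% held the G-box, 14.8% the I-box and 12.8% CCAATC.

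Among the small and assembly proteins of photosystem II, PSB28 stood against the rest. PSB27 and PSB28 associate with photosystem II during assembly and repair (for PSB28 this role is known mainly from cyanobacteria), and PSBTN, PSBW, PSBX and PSBY are small subunits of the complex. PSBTN, PSBW, PSBX and PSBY fell in high light, PSB27 (AT1G03600) did not pass the test, -0.47 (SE 0.20, adjusted p = 0.0871), and PSB28 rose. PSB27 was called lower in high light when only the groups compared were fitted (adjusted p = 0.0212), with library totals (0.0245), and without heat library 1 and combination library 2 (0.0282). PSB28 (AT4G28660), at chr4:14149849-14151163 on the plus strand, had 6473, 6063 and 7258 (control), 17597, 14356 and 18763 (high light), 1925, 2429 and 4897 (heat) and 18921, 20268 and 15103 (combination). High light and the combination overlapped each other above all control libraries, and all heat libraries lay below control. The change was 1.35 (SE 0.28, adjusted p = 0.0023) in high light, a 2.55-fold rise, -1.21 (SE 0.28, adjusted p = 0.0035) in heat and 1.45 (SE 0.28, adjusted p = 0.000758) in the combination, the last falling short of the threshold with library totals (0.50).

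PSBX (AT2G06520) had the smallest change of this group in the combination, -0.07 (SE 0.20, adjusted p = 0.793), with 72197, 60034 and 74180 (control), 38355, 39264 and 47868 (high light), 28262, 33386 and 36686 (heat) and 71844, 63054 and 61914 (combination). Both single stresses lay below control, heat lowest, with changes of -0.72 (SE 0.20, adjusted p = 0.0138) in high light and -1.07 (SE 0.20, adjusted p = 0.000906) in heat. The high light call was lost without library 1 (adjusted p = 0.0575) or 3 (0.065) of control or library 1 of high light (0.0611). PSBTN (AT3G21055) fell in both single stresses, with changes of -1.31 (SE 0.17, adjusted p = 8.69e-05) in high light and -1.49 (SE 0.17, adjusted p = 3.41e-05) in heat. PSBW (AT2G30570), which stabilises photosystem II supercomplexes, fell in high light, with a change of -1.63 (SE 0.23, adjusted p = 0.000134), and gave -0.39 (SE 0.23, adjusted p = 0.166) in heat. PSBY (AT1G67740) changed by -0.60 (SE 0.21, adjusted p = 0.0384) in high light, but with the replicate number as a block, which pairs the libraries of this comparison, the adjusted p was 0.0541, and the call was also lost when any single control or high light library was left out (0.0598 to 0.129) or no filter on low values was set (0.077). In the combination PSBY (1.00) and PSB27 (0.71) were higher than control on the deposited scaling, and under library totals the values were 0.05 and -0.24 with neither call kept, while PSBTN (-1.06), PSBW (-1.03) and PSBX (-1.02) were then lower than control.

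Around cytochrome b6f, PETE1 fell in high light, PETE2 rose in heat, and PETC did not pass the test in either single stress. PETC (AT4G03280), the Rieske iron-sulfur protein of the complex, had a log2 change of 0.19 (SE 0.28, adjusted p = 0.652) in high light, -0.29 (SE 0.28, adjusted p = 0.414) in heat and 0.78 (SE 0.28, adjusted p = 0.0306) in the combination. That last call was lost without control library 2 (adjusted p = 0.115) or 3 (0.0505) or combination library 1 (0.0748) or 2 (0.0743), and under library totals the value was -0.17. The copper protein plastocyanin is made mostly from PETE2. PETE2 (AT1G20340) had 102806, 79241 and 104256 (control), 48847, 70620 and 62926 (high light), 141017, 192962 and 139103 (heat) and 198021, 184782 and 148938 (combination). Heat and the combination overlapped each other above control, and high light lay below it. The changes were -0.66 (SE 0.26, adjusted p = 0.0682) in high light, 0.72 (SE 0.26, adjusted p = 0.0358) in heat and 0.89 (SE 0.26, adjusted p = 0.0101) in the combination, with -0.06 in the combination under library totals. The high light value of PETE2 passed the test by DESeq2 (adjusted p = 0.00698), with a filter at a mean of 50 (0.0421) and with library totals (0.0217). It also passed when only control and high light were fitted (0.0331) and without heat library 1 and combination library 2 (0.0411). The heat call was lost with no filter (adjusted p = 0.104), with the replicate number as a block (adjusted p = 0.0555), when only control and heat were fitted (0.139), and without any single control library (0.0671 to 0.129) or heat library 2 (0.114). PETE1 (AT1G76100) had 5914, 5473 and 6875 (control), 1354, 2029 and 2058 (high light), 3869, 6694 and 6237 (heat) and 8039, 6460 and 6716 (combination). High light held by far the least PETE1, -1.77 (SE 0.23, adjusted p = 7.47e-05), while heat and the combination overlapped control, -0.15 (SE 0.23, adjusted p = 0.595) and 0.22 (SE 0.23, adjusted p = 0.426), the latter turning to -0.74 with library totals. That last value was called lower (adjusted p = 0.00515).

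FD1 rose more than any other member in each of the 3 stresses. Ferredoxin carries electrons from photosystem I, and FD2 is the major leaf form and FD1 the minor. FD1 (AT1G10960), at chr1:3664187-3665040 on the plus strand, had 3456, 2726 and 2884 (control), 13699, 22840 and 19279 (high light), 14964, 21045 and 24077 (heat) and 65084, 87217 and 67576 (combination). High light and heat overlapped each other above control, and the combination lay above both. The change was 2.60 (SE 0.24, adjusted p = 6.59e-06) in high light, 2.71 (SE 0.24, adjusted p = 6.59e-06) in heat and 4.59 (SE 0.24, adjusted p = 1.04e-07) in the combination, a 24.2-fold rise that was 3.64 on the log2 scale under library totals. FD1 shares 78 transcribed bases on the same strand with AT1G10950, whose mean normalised counts were 3153 (control), 2550 (high light), 3904 (heat) and 4500 (combination). The FD1 counts exceeded those of its neighbour in every stressed library. In control the neighbour had 3316, 2908 and 3235, above FD1 in libraries 2 and 3. Whether reads of the neighbour entered the FD1 counts was not tested.

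FD2 (AT1G60950) had 36785, 29198 and 33332 (control), 57312, 45113 and 72719 (high light), 12300, 25857 and 47390 (heat) and 103671, 91529 and 104659 (combination). The combination exceeded every other library, high light exceeded control, and heat spread from below to above control. Changes were 0.80 (SE 0.38, adjusted p = 0.126) in high light, -0.42 (SE 0.38, adjusted p = 0.384) in heat and 1.60 (SE 0.38, adjusted p = 0.00307) in the combination, where library totals gave 0.65 without a call. Without heat library 3 the change in heat was -0.89 (adjusted p = 0.0351), and fitting control and high light alone put the change in high light past the threshold (adjusted p = 0.0108), as did leaving out heat library 1 and combination library 2 (0.0257). Without these 2 libraries FD2 (0.86, adjusted p = 0.0221) and PETC (0.57, 0.0303) were also called higher in the combination than in high light. Both calls stand on the deposited scaling. Library totals shifted the all-gene median of that comparison by -0.90, a shift larger than either value.

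The reductase copies differed under heat. LFNR2 (AT1G20020), at chr1:6942625-6945091 on the plus strand, had 68819, 57272 and 73823 (control), 45550, 50998 and 53446 (high light), 20219, 22938 and 15966 (heat) and 22601, 22461 and 17102 (combination). Heat and the combination overlapped each other at the bottom, high light lay between them and control. LFNR2 fell with both, with changes of -1.77 (SE 0.21, adjusted p = 3.88e-05) in heat and -1.69 (SE 0.21, adjusted p = 2.71e-05) in the combination, and its change in high light was -0.41 (SE 0.21, adjusted p = 0.146). It was the single member lower in the combination than in high light on the deposited scaling, -1.28 (SE 0.21, adjusted p = 0.000213), and PSB28, ATPC1, ATPD and ATPG joined it with library totals. LFNR1 (AT5G66190), which anchors the LFNR dimer at the membrane, had 37763, 26872 and 33520 (control), 26256, 34744 and 28932 (high light), 32239, 43110 and 28250 (heat) and 44938, 42531 and 36839 (combination). All 4 groups of LFNR1 overlapped except the combination with high light. Its changes were -0.12 (SE 0.22, adjusted p = 0.71) in high light, 0.07 (SE 0.22, adjusted p = 0.813) in heat and 0.35 (SE 0.22, adjusted p = 0.184) in the combination, the smallest of the ferredoxin group, turning to -0.60 with library totals. That last value was called lower (adjusted p = 0.0187).

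The 3 nuclear subunits of the ATP synthase did not pass the test in high light (0 by limma, also unadjusted, by edgeR and by DESeq2), with changes of -0.10 (ATPC1, the gamma subunit), -0.24 (ATPD, the delta subunit) and -0.08 (ATPG, a subunit of the membrane stalk). ATPD (AT4G09650) had 31951, 27226 and 34336 (control), 26142, 26815 and 25775 (high light), 11634, 12227 and 15500 (heat) and 26468, 18226 and 16429 (combination). All 3 heat libraries lay below all others, and the combination reached up into the high light range but not into control. ATPD fell in both, with changes of -1.25 (SE 0.21, adjusted p = 0.000385) in heat and -0.64 (SE 0.21, adjusted p = 0.0173) in the combination. The second call was lost without library 1 (adjusted p = 0.0528) or 3 (0.0692) of control or library 2 (0.0608) or 3 (0.0734) of the combination. ATPC1 (AT4G04640) had 45000, 35684 and 45672 (control), 38029, 40361 and 38847 (high light), 21470, 34544 and 34156 (heat) and 50037, 39518 and 44290 (combination). Only heat stood apart from control, below it, at -0.51 (SE 0.22, adjusted p = 0.0717), and the combination gave 0.09 (SE 0.22, adjusted p = 0.757) on the deposited scaling and -0.87 with library totals. The heat value of ATPC1 passed the test by DESeq2 (adjusted p = 0.0319) and with library totals (0.0163). Its combination value was called lower with library totals (adjusted p = 0.000735). ATPG (AT4G32260) changed by -0.25 (SE 0.19, adjusted p = 0.279) in heat and 0.30 (SE 0.19, adjusted p = 0.182) in the combination (-0.65 with library totals, called lower, adjusted p = 0.00579).

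**Figure D3:**
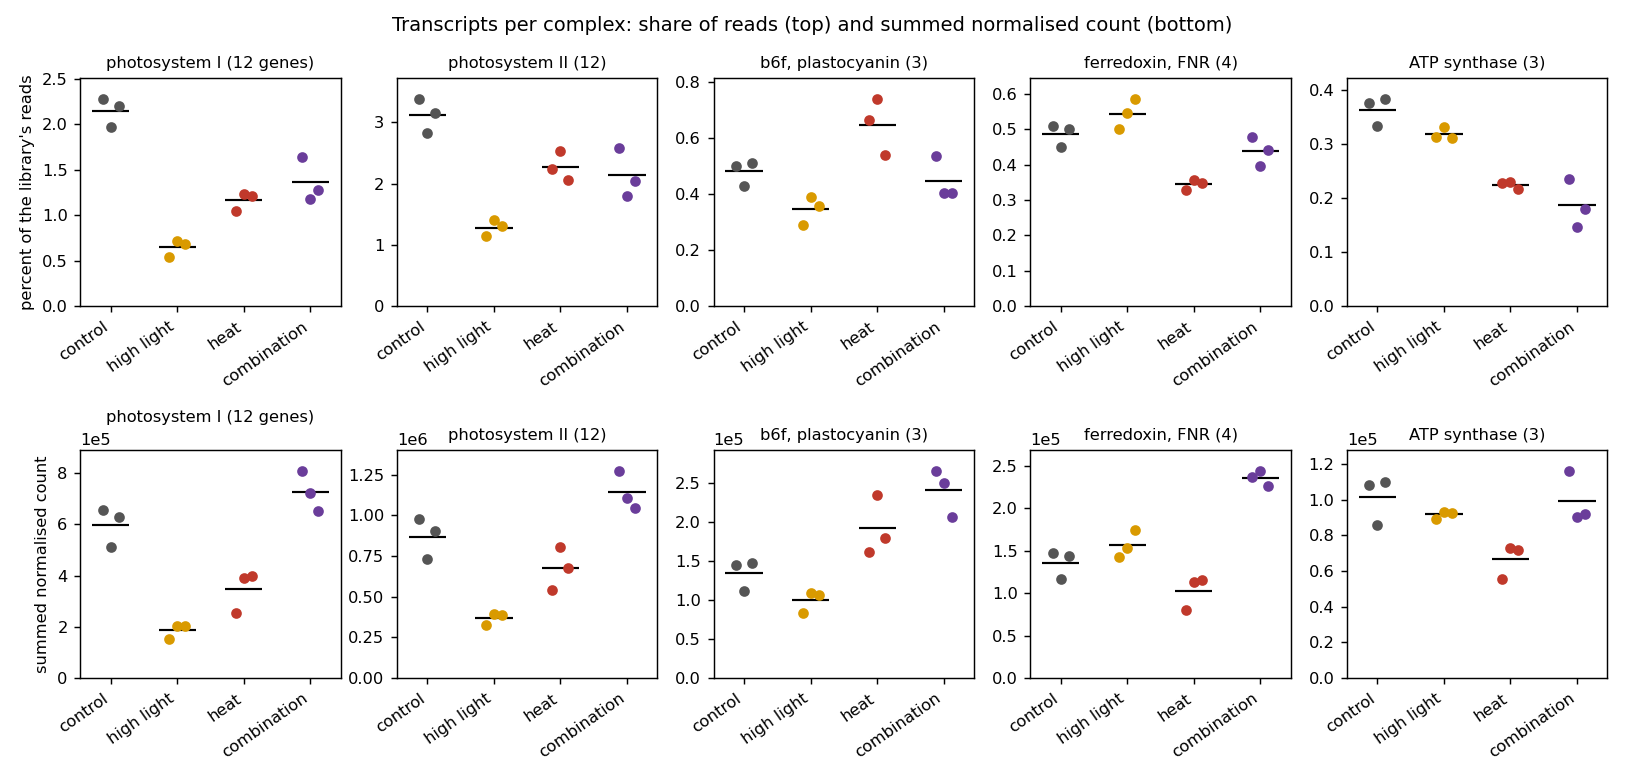
Share of a library's reads (top, percent) and summed normalised count (bottom) of the genes of each complex, 1 point per library and a line at the mean of 3. Photosystem I holds 0.542% to 0.717% of reads in high light and 1.98% to 2.28% in control, and the combination lies below control in the top row and at or above it in the bottom row for both photosystems, the rows differing in scaling alone.

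Summed over complexes, the shares of reads do not depend on the size factors. The 34 genes took 6.60% ± 0.528 of control reads (SD, n = 3), 3.14% ± 0.314 of high light reads, 4.66% ± 0.382 of heat reads and 4.58% ± 0.801 of combination reads. Photosystem I genes held 2.15% ± 0.157, 0.646% ± 0.0923, 1.16% ± 0.0966 and 1.36% ± 0.245, and photosystem II genes 3.12% ± 0.277, 1.28% ± 0.133, 2.28% ± 0.244 and 2.14% ± 0.399, in the same order of groups. As normalised counts the photosystem I sum of the combination was 728300 ± 77530, beside 599500 ± 78210 for control, 186200 ± 27430 for high light and 348100 ± 81240 for heat. The ferredoxin and reductase genes together held 0.486% of reads in control and 0.544% in high light, ranges of 0.449% to 0.508% and 0.501% to 0.586% that overlap.

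The ratio of the photosystem I to the photosystem II sum, which the scaling between libraries cannot alter, was 0.674, 0.698 and 0.698 in control and 0.635, 0.652 and 0.624 in the combination. It was 0.476, 0.512 and 0.522 in high light and 0.468, 0.485 and 0.588 in heat. Control lay above all other groups and the combination above both single stresses, and this order was not tested. Ordered by counts per kilobase of transcript, PSBR was the most abundant member in all 4 groups, at 161100 (control), 74960 (high light), 220400 (heat) and 322800 (combination). PSBP1 came second in control (126200), FD2 in high light (59270), PETE2 in heat (117100) and PSAL in the combination (144300). FD1 moved from the last place of 34 in control (3539 per kilobase) to place 17 under high light, 18 under heat and 10 under both (85820).

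The balance within pairs of copies shifted for 7 of the 8 pairs. Other pairs of genes were not tested, so this count cannot be called particular to these copies. Against control, 16.6% to 29.8% of all genes were called in each direction in a single comparison. The log2 ratio of the first to the second copy was compared among the 4 groups with an exact permutation test of the F statistic over all assignments of the 12 libraries, adjusted over the 8 pairs, and a ratio within a library does not depend on the scaling. The coding sequences of a pair were 75.0% to 88.0% identical, with identical runs of 17 to 35 bases at most, so some reads of one copy may have been counted on the other, and the read length is not given in the sources used here.

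For PSBQ the order of the copies turned. PSBQ1 made up 61.2%, 57.2% and 61.1% of the pair in high light, but 31.3%, 32.7% and 31.0% in the control libraries, 35.9%, 41.4% and 44.7% in those of heat and 46.5%, 47.2% and 43.4% in those of the combination (exact permutation test, adjusted p = 0.000779). High light stood apart from every other group. For the reductases the order turned with heat, since LFNR1 made up 35.4%, 31.9% and 31.2% in control and 36.6%, 40.5% and 35.1% in high light but 61.5%, 65.3% and 63.9% with heat and 66.5%, 65.4% and 68.3% with both (exact permutation test, adjusted p = 0.000779). Control and high light overlapped, and both lay below heat and the combination.

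FD1 supplied 8.59%, 8.54% and 7.96% of ferredoxin counts in the control libraries, 19.3%, 33.6% and 21.0% in those of high light, 54.9%, 44.9% and 33.7% in those of heat and 38.6%, 48.8% and 39.2% in those of the combination (exact permutation test, adjusted p = 0.00156). Only heat and the combination overlapped. PSAD1 made up 73.7%, 72.3% and 73.4% in the control libraries, 90.7%, 83.5% and 88.7% in those of high light, 73.9%, 66.2% and 63.5% in those of heat and 62.5%, 61.9% and 56.8% in those of the combination (exact permutation test, adjusted p = 0.00104). The PSAD1 share was highest in high light and lowest in the combination.

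PSBO1 made up 79.0% of its pair on average in control, 70.6% under high light, 71.6% under heat and 62.0% under both, so that control was highest and the combination lowest (exact permutation test, adjusted p = 0.00104). PETE1 was a small share throughout, 6.03%, 2.89%, 3.44% and 3.86% in the same order (exact permutation test, adjusted p = 0.00433), and each stress lay below all control libraries. PSAH1 made up 35.8%, 43.5%, 40.6% and 39.1% (exact permutation test, adjusted p = 0.0105). For PSAE1, at 59.8%, 59.6%, 51.6% and 62.4%, the exact permutation test gave an adjusted p of 0.0862, which became 0.00825 without heat library 3.

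**Figure D4:**
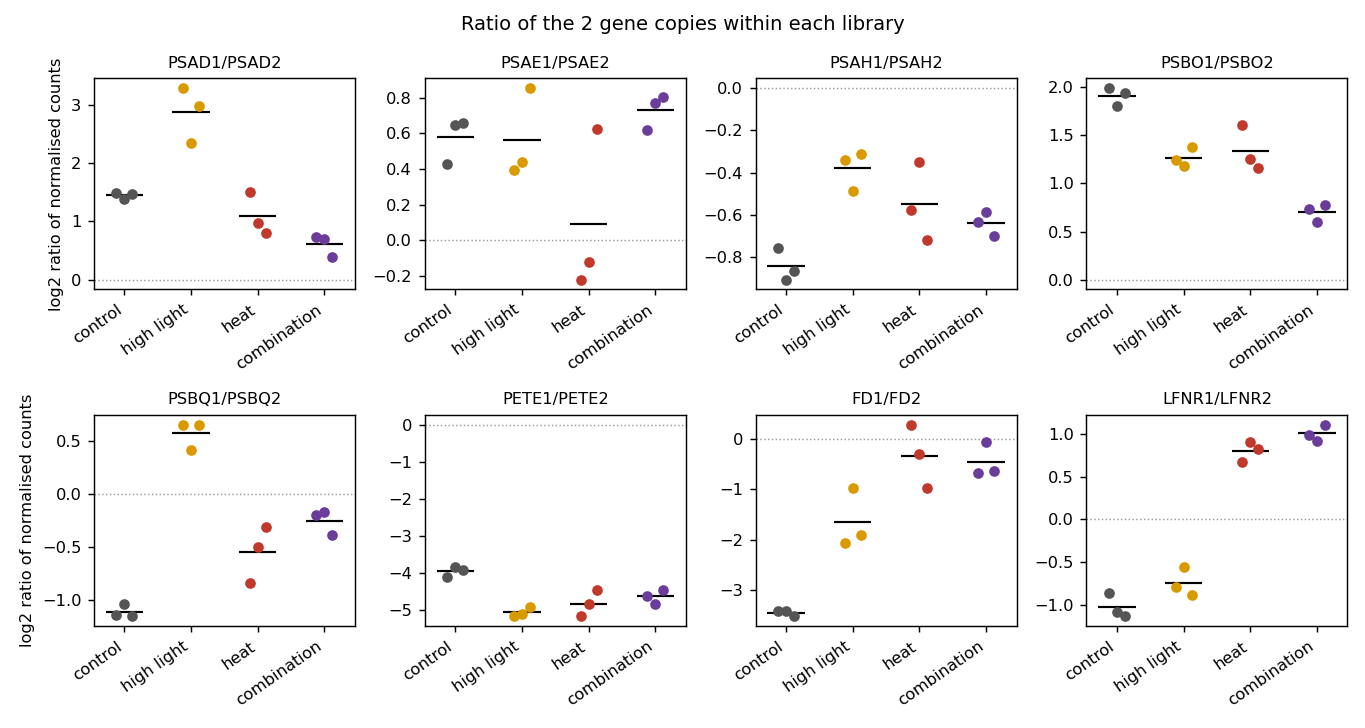
Log2 ratio of normalised counts between the copies of each of 8 gene pairs (y axis) in the 4 groups, 1 point per library and a line at the mean of 3, with a dotted line at equal counts. PSBQ1/PSBQ2 crosses the dotted line in high light alone, LFNR1/LFNR2 lies above it in heat and the combination, and FD1/FD2 climbs from -3.45 in control to -0.33 in heat.

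The change with heat differed with and without high light. The interaction, the change from high light to the combination minus the change from control to heat, was positive and past the threshold for 26 of 34 members and negative for 0 (23.0% and 23.2% of all genes), 0 also by limma at an unadjusted p under 0.05, by edgeR and by DESeq2, with a median of 2.05 beside -0.01 over all genes. With library totals the counts were 24 and 1, the 1 being FD1. Heat alone changed photosystem I genes by -1.57 to -0.35 on the log2 scale, and heat added to high light changed them by 1.15 to 3.41. All 12 photosystem I genes and all 12 photosystem II genes had a positive interaction on the deposited scaling, and with library totals all but PSB28 passed the test as positive.

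PSAD2 had the highest interaction, 3.94 (SE 0.48, adjusted p = 7.03e-05), followed by PSAN at 3.60 (SE 0.37, adjusted p = 2.64e-05) and PSAO at 3.57 (SE 0.35, adjusted p = 2.22e-05). PSB28 was the lowest of the photosystem genes, 1.31 (SE 0.40, adjusted p = 0.017), and its call was lost without heat library 1 and combination library 2 together (0.94, adjusted p = 0.0641). PETE1, with 2.14 (SE 0.32, adjusted p = 0.000254), and ATPD, with 0.86 (SE 0.29, adjusted p = 0.029), were the others past the threshold, and leaving out any of 6 single libraries ended the ATPD call (adjusted p from 0.056 to 0.0753). FD1 was the single member with a value below 0, -0.71 (SE 0.33, adjusted p = 0.0977), which passed the threshold without heat library 1 (adjusted p = 0.0276) or high light library 1 (0.0439), and without heat library 1 and combination library 2 together (0.0192).

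Against heat, the call of a higher value in the combination rested on single libraries or on the joint fit for several members. It was lost without heat library 1 for PSAF (0.49, adjusted p = 0.0794), PSAG (0.51, 0.0541), PSBO1 (0.52, 0.0708), ATPC1 (0.37, 0.0938) and ATPD (0.53, 0.0519). It was lost without combination library 1 for these and for PSAD1 (0.66, adjusted p = 0.0508) and ATPG (0.45, 0.0842). Without heat library 1 and combination library 2 the lost calls were those of PSAD1, PSAF, PSAG, PSBO1, ATPC1, ATPD and ATPG (adjusted p from 0.0528 to 0.101). When heat and the combination were fitted alone, these 7, PSAL (0.0982) and PETC (0.0504) were lost. PSBO1 was also lost without heat library 3 (adjusted p = 0.0816) or combination library 2 (0.0858) or 3 (0.0812). PSAF and ATPC1 were lost without combination library 3 (adjusted p = 0.0598 and 0.0729), ATPD without heat library 2 (0.062) and ATPG without heat library 3 (0.0534). By edgeR PSAF (adjusted p = 0.0538), PSBO1 (0.0675) and ATPC1 (0.0647) were not called. Among calls against high light, PSBX (0.65) was lost without library 1 of high light (adjusted p = 0.0565) or of the combination (0.0508).

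**Figure D5:**
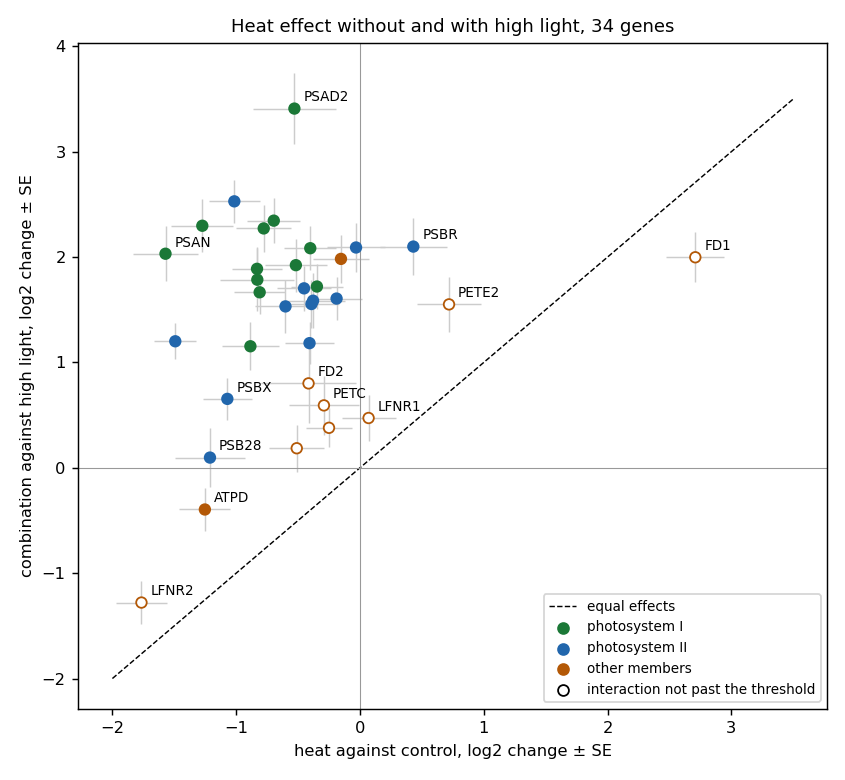
Log2 change of 34 genes from control to heat (x axis) against the change from high light to the combination (y axis), with standard errors, photosystem I in green, photosystem II in blue and the others in brown, open symbols having no called interaction, and a dashed line where both effects are equal. All 24 photosystem genes lie above the dashed line, and FD1 lies below it. Library totals would move every point down, by a median of 0.90 over all genes on the y axis.

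Of 57 other nuclear genes of the thylakoid, 54 were tested and 3 (ATPC2, FDC1 and NDHL) are listed at 0 in every library. In high light 9 of the 54 were higher and 13 lower, in heat 5 and 18, and in the combination 23 and 3 on the deposited scaling, with medians of -3.6e-05, -0.28 and 0.39. Among genes of cyclic flow and photoprotection 2 were higher and 2 lower in high light, where PSBS, the sensor of lumen acidity in photoprotective quenching, rose most, by 1.89 (SE 0.20, adjusted p = 1.94e-05). In the combination 7 of that group's 10 tested genes were higher and PGR5, needed for cyclic electron flow around photosystem I, rose most, 1.62 (SE 0.18, adjusted p = 1.34e-05). Of the 17 NDH complex genes tested, 5 were higher and 3 lower in high light, led by PNSL5 with 1.01 (SE 0.16, adjusted p = 0.000314), and 9 were higher in the combination, led by NDHT with 1.89 (SE 0.17, adjusted p = 2.77e-06).

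Among 19 assembly factors 1 was higher and 4 were lower in high light, with the largest change in HCF173, -1.40 (SE 0.45, adjusted p = 0.0286), which helps translate the chloroplast-coded D1 protein of photosystem II. In heat 1 was higher and 9 lower. In the combination 4 were higher and 2 lower, with the largest change in HCF244, 1.41 (SE 0.33, adjusted p = 0.0031), a partner of HCF173 in D1 synthesis. Of 8 thylakoid kinase, phosphatase and membrane curvature genes 1 was higher and 4 lower in high light, where the curvature gene CURT1D rose by 1.79 (SE 0.15, adjusted p = 4.54e-06), and 3 were higher and 1 lower in the combination, where the kinase gene STN8 changed by 1.00 (SE 0.19, adjusted p = 0.000619). These counts are to be read beside the all-gene shares given above, and the combination values stand on the deposited scaling.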

How the data were processed

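RNA of Arabidopsis leaves was taken from control, high light, heat and combined-stress plants, 3 libraries a group. Per the labels' protocols, RNA was extracted with Trizol, and libraries used poly(A) enrichment. Per the submitters' processing notes, the tools were FastQC 0.11.7, STAR 2.4.0.1 and DESeq2 1.20.0 and the genome build TAIR10. The counter, strand setting, annotation release and read length are not given in the sources used here. The deposited signal values are normalised counts, that is read counts that the authors divided by 1 size factor per library. Dividing by the smallest step gave whole reads for 100% of non-zero values (within 0.001), from 29814116 to 36938786 reads per library. Groups came from the labels.

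The tests used log2(normalised count + 1), fitted with limma 3.58.1 (limma-trend, R 4.3.3) on all 12 libraries with 1 mean per group, over 19309 genes with a mean of at least 10. A count test is the alternative, since the values are not counts (edgeR 4.0.16 and DESeq2 1.42.0 on the recovered reads). Two-sided p-values had a Benjamini-Hochberg adjustment in each of 6 comparisons and a threshold of 0.05. Fold changes are on the log2(value + 1) scale. Copy ratios were tested with an exact permutation test adjusted over 8 pairs, which cannot give a raw p below 6.5e-05. The fit was tested on simulated data.

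The members, gene lists and tests were chosen with earlier results of these data known. All 34 members are named. Values in every library are given for both copies of the 8 pairs and for the members of each class with the largest and smallest change in the combination against control. Of the other pathway genes, those with the largest change in high light and in the combination are named per list. Other fits changed the pseudocount, filter, scaling, libraries and block.

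Replicate numbers of control and high light libraries deviated together (correlations of 0.159, 0.157 and 0.307 across genes), so they were taken to pair the libraries in that comparison. The main fit did not use these numbers, and the fit with them as a block is an alternative. Gene positions and upstream sequence came from the TAIR10.1 genome and RefSeq annotation, used because the deposited values have no coordinates. Of the 34 members 11 overlap another annotated locus, 3 of them on the same strand (PSAD2, PSBP1 and FD1), and reads there could be split.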

Additional observations from a re-analysis of the deposited data

Results flagged for a closer look

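The change with heat differed with and without high light for 26 members, by the test of the interaction itself (limma, all 12 libraries). Each value is the log2 change from high light to the combination minus that from control to heat. On the docking side of photosystem I the values were 3.94 for PSAD2, 3.60 for PSAN, 2.72 for PSAE1, 2.61 for PSAF, 2.07 for PSAE2 and 2.04 for PSAD1. On the antenna side of photosystem I the values were 3.57 for PSAO, 3.05 for PSAK, 3.04 for PSAH2, 2.48 for PSAH1, 2.48 for PSAG and 2.44 for PSAL. Among the oxygen-evolving proteins the values were 3.54 for PSBQ2, 2.15 for PSBQ1, 2.13 for PSBO1, 2.12 for PSBO2, 1.96 for PSBP1 and 1.67 for PSBR. Among the small and assembly proteins of photosystem II the values were 2.69 for PSBTN, 1.95 for PSBW, 1.79 for PSBY, 1.73 for PSBX, 1.59 for PSB27 and 1.31 for PSB28. The other genes were PETE1 with 2.14 and ATPD with 0.86. All 26 were positive on the deposited scaling, and with library totals PSB28 and ATPD no longer passed the test.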

How the results depend on the processing

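Library totals as the scaling, chosen after seeing the data, gave 1 member higher and 20 lower in the combination against control, 5 lower against high light, 9 higher and 5 lower against heat, and 1 lower in the interaction. The turned values listed next are those of members called on the deposited scaling, with library totals or on both. Members with no call on either scaling are not listed, also where their direction turned. In the combination against control the values that turned were PSAE1 -0.67, PSAE2 -0.83, PSAF -0.93, PSAN -0.69, PSAK -0.18, PSAH1 -0.0731, PSAH2 -0.28, PSAL -0.51, PSBO1 -0.94, PSBP1 -0.84, PSBQ1 -0.0551, PSBQ2 -0.92, PSB27 -0.24, PETC -0.17, PETE1 -0.74, PETE2 -0.0586, LFNR1 -0.60, ATPC1 -0.87 and ATPG -0.65. In the combination against high light the values that turned were PSBX -0.25, PSB28 -0.80, ATPC1 -0.71 and ATPG -0.52. In the combination against heat the values that turned were PSAD1 -0.14, PSAF -0.0202, PSAG -0.22, PSBO1 -0.25, PSBW -0.55, PETE1 -0.50, PETE2 -0.69, LFNR1 -0.59, LFNR2 -0.79, ATPC1 -0.27, ATPD -0.25 and ATPG -0.32. No other setting turned the direction of a called value. Members higher in heat numbered 1 with no filter on low values, 1 with only the groups compared and 1 with the replicate block, and 1 to 2 with a library left out. Fitting only the groups compared gave 17 higher in the combination against heat. With a library left out, members lower numbered 1 to 2 in the combination against control, 1 to 2 against high light and 0 to 1 in the interaction, where leaving out heat library 1 and combination library 2 together gave 1. The difference in the mean log2 ratio of PSAE1/PSAE2 between combination and control ranged from 0.0789 to 0.210 with a library left out and was 0.154 without heat library 3, where it passed the test. The cause of these changes was not tested. Over all 34 members, counts by edgeR and DESeq2 on recovered reads were within 1.5 times the reported ones. Within classes, members lower in heat numbered 1 by limma, 2 by edgeR and 3 by DESeq2 among the oxygen-evolving genes, and 1, 1 and 2 for the ATP synthase. On the antenna side of photosystem I they numbered 4, 4 and 5. Against heat, members higher in the combination numbered 5, 4 and 5 among the docking genes, in the same order of tests. They numbered 4, 3 and 6 among the oxygen-evolving genes and 3, 2 and 3 for the ATP synthase. DESeq2 called 2 plastocyanin and cytochrome b6f genes lower in high light where limma called 1, and for the interaction it called 3 of the ATP synthase and 2 of those genes where limma called 1 of each. Against high light DESeq2 called 2 ferredoxin and reductase genes and 1 ATP synthase gene higher in the combination, where limma called 1 and 0. The replicate block gave 22 members lower in high light, 24 higher in the combination against heat and 1 higher in heat, ended the calls of PSBY, PETE2, PSBO1 and ATPC1 named above, and changed no other call. Outside control and high light, same-numbered libraries of the groups compared did not all correlate above 0.1, so the number was not taken to pair them. High light and heat libraries of the same number did (0.147, 0.152 and 0.151), and these groups meet only in the interaction.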
